A study of Brassica rapa with 8 samples.

Results

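The abundant silique-specific genes of *B. rapa* are 287 of the 38200 gene models in the deposited expression table. They were chosen by their measured levels: a tissue-specificity index T of at least 0.9, the highest level in silique, and a silique FPKM above 50 whose 95% confidence interval stayed above 0. FPKM is the number of fragments per unit of transcript length, relative to all mapped fragments of the sample. T runs from 0 for a gene at the same level in all 6 tissues to 1 for a gene found in a single tissue. The level in silique relative to the other tissues, and everything that follows from it, is therefore given as a description without a test.

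The samples were poly-A RNA libraries of the accession Chiifu-401-42, with no treatment named in the labels. Silique was collected 15 days after pollination, flower at blooming, and stem, leaf and root from plants of 7 weeks. Callus came from tissue culture. Leaf and root had 2 samples each, from different batches of plants per the study's methods, and silique, flower, callus and stem had 1 sample each. The silique level of every gene thus had no replicate check, and its interval covered the estimate within 1 library and no spread between samples.

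The silique is the fruit of the Brassicaceae, a pod of carpel origin that encloses the developing seeds. A whole silique after pollination holds the pod wall, the septum and seeds with their embryo, endosperm and seed coat. Seed development in the family is known for the accumulation of storage proteins and oil, whose genes are expressed at high levels in the embryo and are nearly silent in vegetative organs. The flower contains the pistil from which the silique grows. No table of gene names used here held any of the 287 identifiers, so no role was assigned to a gene and the tissue label was not checked here against named markers. In whole organs, a larger share of cells expressing a gene and more RNA per cell cannot be told apart.

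Fragment numbers implied by the confidence intervals summed to between 7944080 in silique and 16417500 in root 1. The sequencing depth per FPKM was 0.95 times that of silique in stem, between 1.13 and 1.21 times in callus, flower, leaf 2 and root 2, and 1.80 and 1.81 times in leaf 1 and root 1. A low level was thus at least as detectable in every other sample as in silique, apart from stem. The share of all gene models detected, that is with a lower bound above 0, was 66.3% in silique and between 64.4% (leaf 2) and 73.6% (root 1) in the other samples.

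The silique levels of the 287 genes covered nearly 3 orders of magnitude. The lowest was FPKM 50.1, the median 122 and the highest 29280. The quartiles were 76.4 and 205. There were 168 genes above FPKM 100, 74 above 200, 25 above 500, 14 above 1000 and 4 above 5000. Each value rested on at least 96 implied fragments, with a median of 1023, and the distance from FPKM to the bound of its interval was 6.25% of the value for the median gene and 20.7% for the widest interval. Of the 2396 genes above FPKM 50 in silique, 11.98% met the rule. They took more of the upper end of the silique transcriptome, with 6 of its 10 most abundant genes, 12 of its 20 and 37 of its 100. Since T divides by the silique level, this was partly given by the choice.

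Together the 287 genes held 18.5% of the summed FPKM in silique. In the other samples they held 0.489% of it in flower, 0.168% in callus, 0.120% in stem, 0.132% and 0.104% in leaf, and 0.178% and 0.166% in root. A few genes carried most of this sum. The gene with the highest level alone held 4.62% of all silique FPKM, the first 4 genes held 8.42% and the first 20 held 12.1%. FPKM divides by transcript length, and counted as implied fragments the 287 genes held 13.6% of the silique library, of which the first gene held 4.12%. Since FPKM is a share of the library, a gene of this size lowers the value of all others in that sample.

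**Figure D1:**
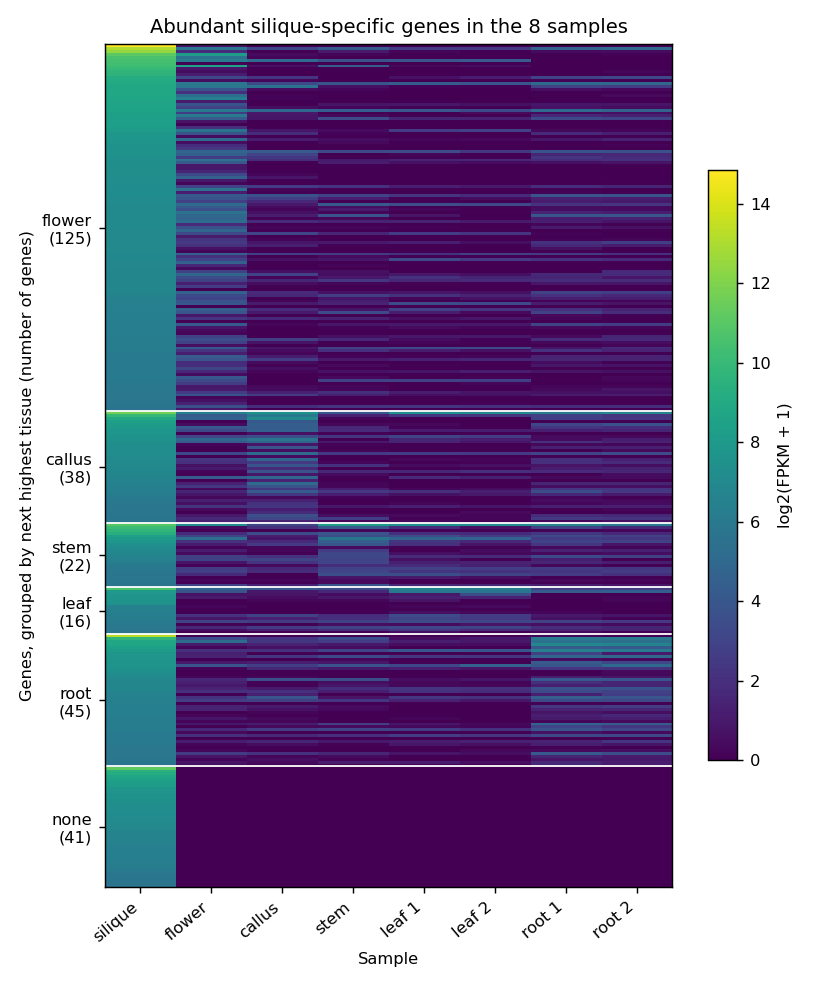
Levels of the 287 genes in the 8 samples as log2(FPKM + 1), a row for each gene. Rows are grouped by the tissue with the next highest level after silique, with the number of genes of each group in parentheses, and sorted by silique level within a group. The silique column is bright for every gene, flower is the next brightest column for the largest group (125 genes), and 41 genes are at 0 in all 7 other samples.

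The 20 genes with the highest silique level included both genes nearly confined to silique and genes read in all samples. Every other sample was below FPKM 5 for 9 of them, with a highest value of 2.36, whereas the other 11 reached at least 15.9 elsewhere. There was no gene of the 20 in between. Bra025046 (Scaffold000046, positions 1482288 to 1483980) was the most abundant gene of the whole silique sample, at FPKM 29280 (95% interval 29178 to 29383). It had 0.818 in flower and 0 in callus, stem, both leaf and both root samples. Bra028162 (Scaffold000060, 551479 to 551787) had 9797 in silique, 0.166 in root 1 and 0 in the other 6 samples. The value in root 1 had a lower bound of 0, so this gene counts as undetected outside silique. Bra035804 (Scaffold000109, 461945 to 464005) had 5761 in silique, 2.36 in flower, 0 in callus, 1.11 in stem, 0.147 and 0 in leaf, and 0.330 and 0.329 in root. For these 3 genes the silique value stood more than 1000-fold above the next tissue, at 16107-fold, 9047-fold and 1714-fold on FPKM + 1.

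Bra013109 (Scaffold000013, 3483097 to 3483663) was the highest gene with no signal outside silique, at FPKM 2294 in silique and 0 in all 7 other samples. Against the level that 3 fragments over these 7 libraries would give, its silique level was at least 43452-fold higher. This bound is for the 7 libraries pooled and would be lower for any 1 tissue. It cannot be set beside the folds over the next tissue on FPKM + 1. The remaining 5 of the 9 nearly silique-confined genes had between 812 and 1310 in silique. They were Bra021987 (1310, at a locus shared with another gene model), Bra022087 (972), Bra018718 (874), Bra011323 (847) and Bra022088 (812). Their highest values elsewhere were 0.0507 in flower, 0.874 in flower, 0.183 in root 2, 0.417 in flower and 1.21 in flower. Bra022087 and Bra022088 are neighbours on Scaffold000036.

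Among the 11 genes that reached at least FPKM 15.9 in another sample, Bra034904 was the most abundant, at FPKM 8596 in silique. It had 56.1 in flower, 7.57 in callus, 19.2 in stem, 5.24 and 4.55 in leaf, and 25.5 and 32.8 in root. It was detected in all 8 samples and yet had a T of 0.997, since T divides by the silique level. Bra041148 had 3443 in silique, 82.3 in flower, 188 in callus, 14.6 in stem, 170 and 133 in leaf, and 81.5 and 116 in root. It is the only gene model of Scaffold001099. Bra019741 had 1945 in silique, 143 in flower, 7.29 in callus, 258 in stem, 187 and 143 in leaf, and 106 and 66.9 in root. Outside silique, Bra041148 and Bra019741 thus exceeded FPKM 122, the median silique level of the 287 genes, in several samples.

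Bra017379, Bra013544 and Bra000815 shared a pattern of silique and flower. Bra017379 had FPKM 2217 in silique and 284 in flower, and at most 0.350 in the other 6 samples. Bra013544 had 1549 in silique, 46.3 in flower and at most 0.146 elsewhere. Bra000815 had 1208 in silique, 397 in flower, 0.609 in callus, 19.3 in stem, 0.254 and 0.384 in leaf, and 0 in both root samples. Its flower level was the highest of any silique-specific gene outside silique, and was 32.8% of its silique level.

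The other 5 of the 20 differed in the tissue where they were highest after silique. Bra019940 had FPKM 1577 in silique, 28.7 in flower, 18.4 in callus, 8.99 in stem, 102 and 79.4 in leaf, and 5.70 and 5.51 in root. Bra031798 had 879 in silique, 10.04 in flower, 3.66 in callus, 9.10 in stem, 0.532 and 0.965 in leaf, and 70.0 and 69.2 in root. Bra028980 had 1434 in silique, 78.7 in flower, 34.8 in callus, 12 in stem, 13.9 and 18.4 in leaf, and 0 in both root samples. So Bra019940 stood higher in leaf, Bra031798 in root, and Bra028980 was read in every sample except root. Bra038899 had 938 in silique against 64.0 in callus and 19.2 in flower, and at most 6.11 in the other samples. Bra026261 had 1175 in silique against 15.9 in stem and at most 6.73 elsewhere.

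**Figure D2:**
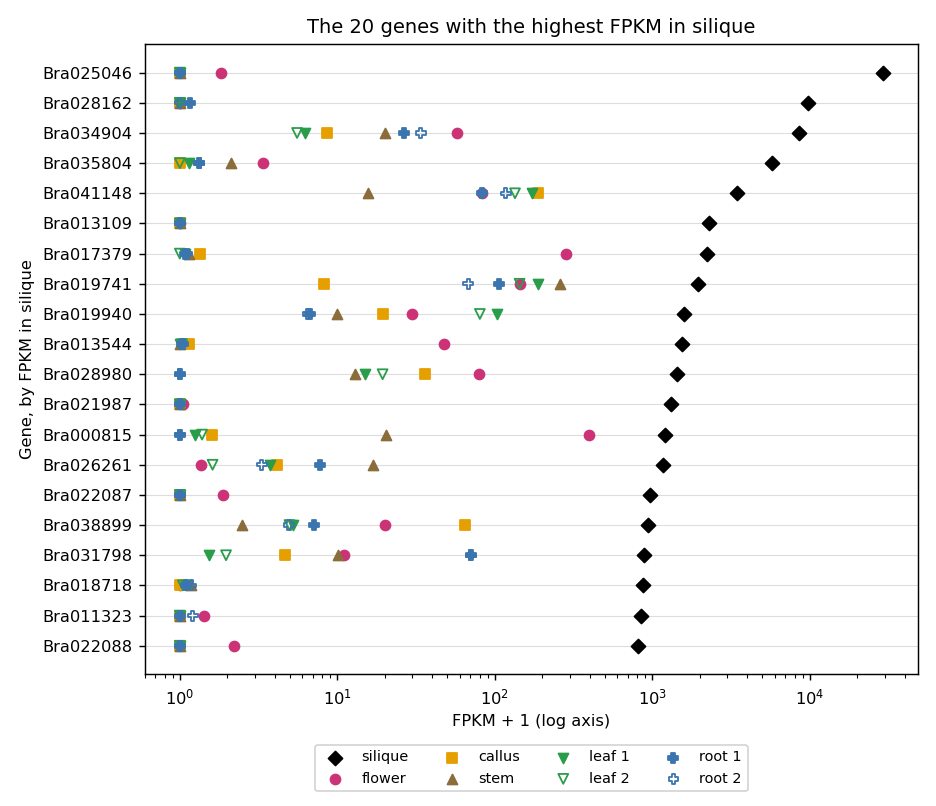
FPKM + 1 on a log axis for the 20 silique-specific genes with the highest silique level, a row for each gene and a symbol for each of the 8 samples. The black diamonds of silique lie between 812 and 29280, right of all other symbols. In 9 rows every other symbol lies below FPKM 5, and in the other 11 at least 1 sample reaches 15.9 or more.

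Silique-specific genes were detected outside silique to very different extents. A lower bound above 0 was found in flower for 180 genes (62.7%), in root 1 and root 2 for 147 (51.2%) and 137 (47.7%), in callus for 135 (47.0%), in stem for 111 (38.7%), and in leaf 1 and leaf 2 for 107 (37.3%) and 93 (32.4%). Most of these values were low. FPKM 5 was reached by 94 genes in flower, 49 in callus, 47 and 40 in root, 43 in stem and 29 and 24 in leaf, and FPKM 50 by 12 in flower and by 2 to 5 in the other samples. The median gene had 1.32 in flower and at most 0.329 in the other samples. Flower thus had the highest count although root 1 and leaf 1 were sequenced more deeply.

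By the number of other samples with a detected level, the 287 genes had a broad spread. There were 76 genes (26.5%) detected in no other sample, 48 (16.7%) in 1, 29 in 2 or 3, 71 in 4 to 6, and 63 (22.0%) in all 7. The word specific therefore describes the proportion of the levels and not absence elsewhere. The silique level did not follow this order, with medians of FPKM 107, 148, 88.9, 113 and 121 over the 5 classes. The span of the locus did, with medians of 648, 1000, 1361, 1584 and 1967 bases. Among the 48 genes with a single further sample, that sample was flower for 39, callus for 6, root 1 for 2 and leaf 1 for 1. The flower level of the 39 ranged from 0.338 to 284 with a median of 2.76, and was 1.88% of the silique level for the median gene and at most 30.2%.

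For 41 genes every one of the 7 other samples was listed at 0. Their median silique FPKM was 125, close to the 122 of all 287 genes. After Bra013109, the highest were Bra000628 with 671 and Bra040559 with 580 in silique, named after their values were seen. Against the level of 3 fragments over the 7 other libraries pooled they were at least 24218-fold and 4532-fold higher, and the bound would be lower for any 1 tissue.

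After silique, the highest tissue was flower for 125 genes (43.6%), root for 45 (15.7%), callus for 38 (13.2%), stem for 22 (7.67%) and leaf for 16 (5.57%), and 41 (14.3%) had none. Among the 603 genes that were highest in silique above FPKM 50 but had T below 0.9, flower came next for 27.4% and root for 26.4%. Among the 1556 silique-specific genes at FPKM 50 or lower, flower came next for 25.1% and 31.5% had no signal elsewhere. The relation did not run both ways. Of the 365 flower-specific genes chosen by the same thresholds, silique came next for 17.8% and callus for 41.6%. Flower and silique were each a single library, so these shares describe the libraries and were not tested as tissue differences.

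Silique stood above the next tissue by 24.1-fold for the median gene on FPKM + 1, a scale that understates the difference of low genes. The quartiles were 8.66-fold and 77.1-fold. All 287 genes were at least 2-fold, 252 at least 5-fold, 206 at least 10-fold, 52 at least 100-fold and 5 at least 1000-fold above it. Silique was at least 10-fold above the next tissue for 1.29% of the 33082 genes expressed in at least 1 sample. The choice of the genes rested on this contrast, so nothing is read from the difference. The smallest fold, 2.64, belonged to Bra027237, named after its value was seen, with FPKM 92.6 in silique and 34.4 in callus. The median fold was 18 for the 125 genes with flower next, 14.1 with callus, 11.8 with stem, 37.4 with leaf and 21.1 with root. The next tissue reached FPKM 10 for 51 of the 125 flower genes, 20 of the 38 callus genes, 9 of 22 stem genes, 2 of 16 leaf genes and 14 of 45 root genes.

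**Figure D3:**
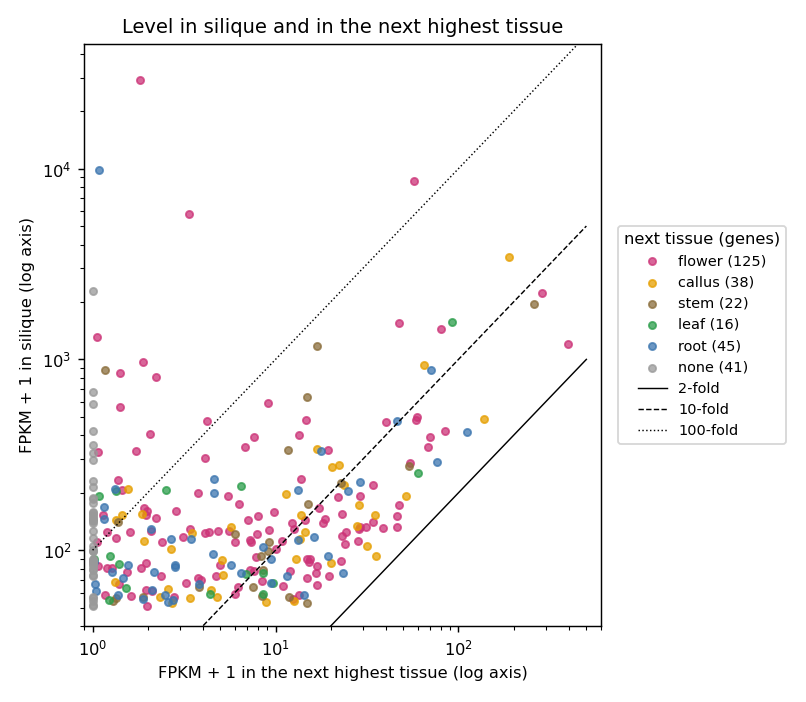
Silique FPKM + 1 against FPKM + 1 in the next highest tissue, both on log axes, a point for each of the 287 genes coloured by that tissue. Lines mark 2-fold, 10-fold and 100-fold. Every gene lies above the 2-fold line, 206 lie on or above the 10-fold line and 52 on or above the 100-fold line, and the grey points at the left are the 41 genes at 0 elsewhere.

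Outside silique, the highest levels in flower were those of Bra000815 (FPKM 397), Bra017379 (284) and Bra019741 (143). In callus, they were Bra041148 (188), Bra016963 (136) and Bra038899 (64.0), and Bra016963 had 486 in silique, so that its callus level was 28.1% of it. In stem, they were Bra019741 (258), Bra025064 (52.8) and Bra029911 (21.9). Bra025064 had 274 in silique, 40.9 in flower, 27.3 and 24.1 in leaf, and 5.22 and 4.09 in root. Bra029911 had 225 in silique and at most 7.09 in samples other than silique and stem. In leaf, the highest means of the 2 samples were 165 for Bra019741, 152 for Bra041148 and 90.6 for Bra019940. In root, they were 110 for Bra023862, 98.8 for Bra041148 and 86.2 for Bra019741. Bra019741 thus stood among the first 3 in flower, stem, leaf and root, and Bra041148 in callus, leaf and root. Apart from these 2 genes, the lists of the 5 tissues had no gene in common.

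Genes near the thresholds differed little from those just beyond them. Just inside the limit of FPKM 50 were Bra019779 with 50.1 and Bra019917 with 50.3 in silique, and just outside were Bra032160 with 49.8 and Bra030579 with 49.3, all with T of at least 0.996. Just inside the limit on T were Bra006137 with 0.90 and Bra005901 with 0.903, and just outside were Bra036636 with 0.899 and Bra038499 with 0.896. Bra006137 had FPKM 104 in silique, 18.8 in flower and 30.8 in callus. Bra005901 had 66.5 in silique and between 5.20 and 8.70 in the other 5 tissues, leaf and root as means. T was at least 0.95 for 231 genes and at least 0.99 for 146.

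The silique-specific genes had short loci more often than other genes, a measure on which the choice did not draw directly. The locus ran over less than 600 bases for 68 of the 287 genes (23.7%), compared with 5.12% of the 2109 other genes above FPKM 50 in silique and 6.67% of the 32795 other expressed genes. The share was 29.6% for the 54 genes specific to stem, 15.7% for the 191 specific to root, 14.5% for the 365 specific to flower, 14.1% for the 290 specific to callus and 8.09% for the 136 specific to leaf, each chosen with the same thresholds. A high share was thus also found for another tissue, and the differences between these lists were not tested. The median span was 1396 bases for the silique-specific genes and 1508 for the other genes above FPKM 50, so the difference lay in the short end. The span runs over introns and is not the transcript length by which FPKM is divided.

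Short genes were also the ones with least signal elsewhere. Of the 68 genes under 600 bases, 37 (54.4%) were detected in no other sample, and of the 219 longer ones 39 (17.8%). The next tissue was below FPKM 1 for 41 of the short genes (60.3%) and 59 of the longer ones (26.9%). Their silique FPKM had the same median of 122. At the same FPKM a short gene gives fewer fragments, with a median of 458.5 in silique compared with 1318 for the longer genes, and a low level is detected less easily. Its part in the difference was not tested. The shortest locus, of 201 bases, was that of Bra019917, which had FPKM 50.3 in silique on 109 implied fragments and 0 in all other samples. The longest, of 27006 bases, was that of Bra010541, which had 88.6 in silique, 12 in callus, 4.39 in flower and at most 0.506 in the others.

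**Figure D4:**
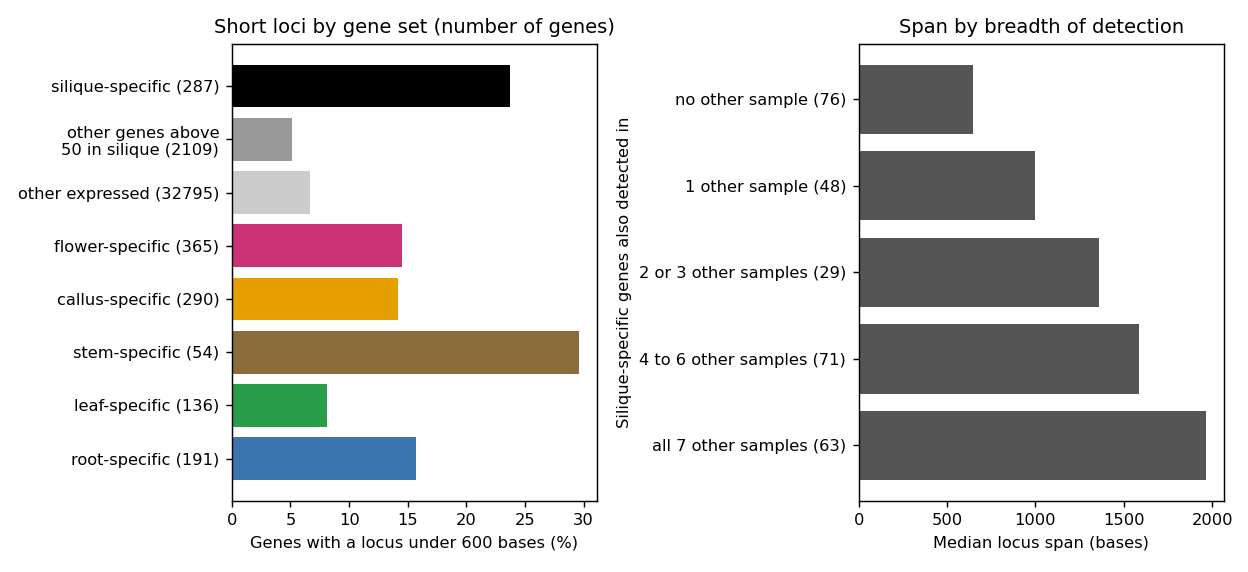
Left, the share of genes with a locus under 600 bases in %, for the silique-specific genes, for other genes above FPKM 50 in silique, for other expressed genes and for the genes specific to each other tissue, with the number of genes in parentheses. Right, the median locus span in bases of the 287 silique-specific genes by the number of other samples in which they were detected. The silique-specific share is 23.7% and that of stem-specific genes 29.6%, and the median span is 648 bases for genes detected nowhere else and 1967 for genes detected in all 7 other samples.

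Some silique-specific genes lay side by side. Next to another silique-specific gene on the scaffold were 22 of the 287 (7.67%), in 11 pairs, while 1.47% of all gene models lay next to a silique-specific gene. The corresponding share was 7.12% for flower-specific, 8.28% for callus-specific, 12.96% for stem-specific, 2.94% for leaf-specific and 1.05% for root-specific genes, so proximity was not particular to silique. No run was longer than a pair. Within 8 of the 11 pairs the silique levels lay within 2-fold of each other, and in 5 pairs both genes were undetected in all other samples. Bra021987 and Bra021988, listed at the same locus, count among the 11 pairs and among these 5. Without them, 20 genes lay next to another. Over all 41041 pairs that can be formed of the 287 genes, 50.3% lay within 2-fold in silique and 6.94% had both genes undetected elsewhere. Since both genes of any pair met the same rule, a likeness in level was partly given by the choice, and adjacent pairs were not tested against the others.

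Bra022087 and Bra022088, the pair with the highest level after those at a shared locus, had FPKM 972 and 812 in silique, 0.874 and 1.21 in flower and 0 in all 6 other samples. They lie 2108 bases apart on Scaffold000036, at 1415310 to 1415837 and 1417946 to 1418468. Bra017357 and Bra017358 on Scaffold000022 had 212 and 175 in silique and 0 in every other sample. Bra026496 and Bra026497 had 98.6 and 87.7, Bra026374 and Bra026375 had 72.6 and 137, and Bra013472 and Bra013473 had 79.7 and 123 in silique, and none of these 6 genes was detected elsewhere. Bra039570 and Bra039571 had 122 and 192 in silique, 3.12 and 4.50 in flower and at most 0.38 in the other samples.

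The remaining pairs differed in silique level or in their levels elsewhere. Bra037985 had FPKM 586 in silique and 7.13 and 8.36 in root, whereas Bra037986 had 55.0 in silique and at most 0.34 elsewhere. Bra038687 had 124 in silique and 1.51 in callus, whereas Bra038688 had 192 in silique and 50.9 in callus. Bra001377 had 192 in silique and 28.1 in flower, whereas Bra001378 had 65.6 in silique and 1.30 in flower. Bra021494 had 57.5 in silique and 5.27 in callus, whereas Bra021495 had 63.3 in silique and 0 in callus. Bra021987 and Bra021988 are listed at the same locus, Scaffold000036 487919 to 488365, with 1310 and 87.1 in silique. How the fragments were divided between them is uncertain. In all, 17 of the 287 genes (5.92%) overlapped another gene model, compared with 7.93% of all gene models. Per the study's methods, levels rested on uniquely placed reads. If this holds for the table, a gene with a near-identical copy elsewhere may be understated, which was not checked here.

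Neighbours that were not silique-specific themselves were highest in silique in 106 of 464 expressed cases (22.8%), compared with 5169 of 32795 expressed genes outside the 287 (15.8%). The silique-specific genes were spread over 106 of the 423 scaffolds. Scaffold000001, the one with the most gene models (1868), held 14 of them.

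Only leaf and root had 2 samples, so only there could the remaining levels be compared with a spread. Of the 287 genes, 63 had FPKM of at least 1 in both leaf samples and 106 in both root samples. Their median difference between the 2 samples was 0.37 on the log2 scale in leaf and 0.38 in root. A difference of at least 2-fold was found for 5 genes (7.94%) in leaf and 8 (7.55%) in root, and over all genes for 7.32% in leaf and 6.18% in root. The largest were those of Bra034029, at 1.01 in leaf 1 and 9.99 in leaf 2, and of Bra029808, at 6.18 in root 1 and 1.07 in root 2, both named after their values were seen. Silique-specific genes at FPKM 1 or more in both samples of leaf or root thus varied about as much as all genes. The 2 sets were not matched for level, and lower values and the other tissues were not covered.

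With all 4 leaf and root samples, more silique-specific genes were called higher in root than in leaf, as was also found over all genes tested. The limma test covered 25725 genes, 124 of them silique-specific, that reached FPKM 1 in 2 or more of the 4 samples, and a gene was called at an adjusted p under 0.05. Higher in leaf were 20 of the 124 (16.1%), beside 16.3% of all genes tested, and higher in root were 68 (54.8%), beside 34.6% of all genes tested. The median log2 difference of leaf over root was -1.02 for these genes and -0.47 for all genes tested. With both tissues scaled to the same upper quartile it was -0.92 and -0.33. A silique-specific gene that passed the filter only through the tissue where it was high had to differ, so the test was also run on all gene models. Then 19 of the 287 (6.62%) were higher in leaf, beside 9.91% of all, and 69 (24.0%) higher in root, beside 19.4% of all. The excess in root over the background was smaller on this basis, and it was not tested. Root 1 was also the sample in which most gene models were detected.

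With each sample left out in turn and the same 124 genes kept, an alternative chosen after seeing the data, between 13 and 18 silique-specific genes were higher in leaf and between 51 and 60 higher in root. The lowest count in leaf, 13 compared with 20, was found with either root 1 or root 2 left out. The share higher in root was then between 41.1% and 48.4% of the 124 genes, beside 17.1% to 24.5% of all genes tested. The share higher in leaf was close to that of all genes tested in each of these runs. The 124 genes still included those that had passed the filter only through the tissue where they were high. The shares among the 124 genes thus carry the limit given above. The spread of a tissue left with a lone sample is taken from the other tissue. Where the filter was applied anew to the 3 samples kept, genes confined to the tissue with a lone sample could not pass it. Then the share of silique-specific genes higher in root was above that of all genes tested, whichever sample was left out. Their share higher in leaf was above that of all genes tested without root 1 or root 2, below it without leaf 1, and close to it without leaf 2. Without root 1 the count was no longer larger in root than in leaf, among genes from which those high only in root had been removed.

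The 6 genes with the lowest adjusted p had a large difference and no overlap between the tissues, which their choice by p implies. Apart from Bra019940, none would have passed the filter without the tissue where it was high. Among these, only Bra019734 also reached FPKM 1 in the other tissue, in leaf 1 alone. With all gene models tested, the limma adjusted p of the 6 genes lay between 0.00449 and 0.00715. Bra023862 had FPKM 0.468 and 0.392 in leaf, against 120 and 101 in root, a log2 difference of -6.28 ± 0.25 (SE, n = 2 each) with a limma adjusted p of 1.18e-05. It had 414 in silique and at most 1.74 in flower, callus and stem. Bra031798 had 0.532 and 0.965 in leaf, against 70.0 and 69.2 in root (-5.35 ± 0.26, limma adjusted p = 1.94e-05). Bra031890 was at 0 in both leaf samples, against 17.4 and 15.9 in root (-4.14 ± 0.23, limma adjusted p = 2.83e-05), with 329 in silique. Bra019734 had 1.39 and 0.968 in leaf, against 46.0 and 44.3 in root (-4.41 ± 0.26, limma adjusted p = 3.19e-05), with 472 in silique and 36.4 in flower. All 4 were thus lower in leaf than in root, and for Bra019734 flower was nearly as high as root.

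The other 2 of the 6 were higher in leaf. Bra028980 had FPKM 13.9 and 18.4 in leaf, against 0 in both root samples (4.09 ± 0.25, limma adjusted p = 3.83e-05). Bra019940 had 102 and 79.4 in leaf, against 5.70 and 5.51 in root (3.78 ± 0.25, limma adjusted p = 4.97e-05). The difference of genes at 0 in a tissue depends on the 1 added to FPKM and is no bound.

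**Figure D5:**
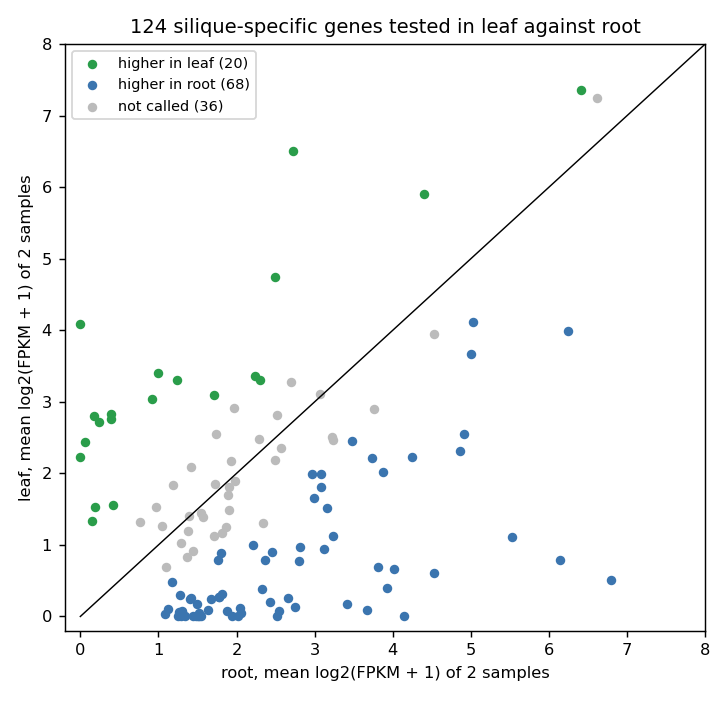
Mean log2(FPKM + 1) of the 2 leaf samples against that of the 2 root samples for the 124 silique-specific genes tested, with the line of equal levels. Of the points, 20 were higher in leaf (green), 68 higher in root (blue) and 36 not called (grey) at an adjusted p under 0.05, and many blue points lie near 0 on the leaf axis. Over all genes tested, 16.3% were higher in leaf and 34.6% higher in root. The points include genes that passed the filter only through the tissue where they were high.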

How the data were processed

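Poly-A RNA of 8 samples from 6 tissues was sequenced as paired ends. The authors deposited FPKM with the bounds of 95% confidence intervals for each gene and sample. Per the study's methods, Cufflinks estimated levels from the trimmed reads that TopHat had placed at a unique position, whereas the submitters' processing notes name another TopHat version, 1.0.13. The table names no tool or build, so which run made it is unclear. Its positions are on scaffolds, given here from base 1.

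T is the sum of 1 minus the ratio of each tissue's FPKM to the highest, divided by 5, with means for leaf and root. Implied fragments are 4 times the squared ratio of FPKM to the distance to its upper bound. Each gene's value was steadied by its median of fragments per FPKM, and this depth sets the precision. Leaf and root were compared with limma 3.58.1 (R 4.3.3, eBayes with a trend, Benjamini-Hochberg adjustment) on log2(FPKM + 1). The script was tested on simulated data. Other values were computed with matplotlib 3.10.9, scipy 1.17.1, pandas 2.3.3 and numpy 2.4.6 in Python 3.11.15.

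The members and lists were chosen with earlier results of these data known. Genes named were the 20 highest in silique, the 3 highest in each other tissue, the 2 nearest each side of a threshold, the 6 with the lowest adjusted p, adjacent pairs, and the longest and shortest locus. Others are marked. The RefSeq gene table of CAAS_Brap_v3.01 held 1 identifier of the table and 0 of the 287, so markers were not looked up and no sequence is shown. Alternatives covered thresholds, T, pseudocounts, scaling, filters, and each leaf and root sample left out.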

Additional observations from a re-analysis of the deposited data

How the results depend on the processing

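The number of silique-specific genes was 432 above a silique FPKM of 25, 168 above 100 and 133 with T from log2(FPKM + 1), and all 133 were among the 287. Under the other alternatives it lay within 1.5 times of 287, among them upper quartile scaling (314, of which 286 shared) and leaving out each leaf or root sample (285 to 289). Counting any FPKM above 0 as detected, 41 genes were undetected elsewhere. Flower came next for 51.3% when only genes reaching FPKM 1 in the next tissue were kept. With a pseudocount of 5 the median fold over the next tissue was 11.8. The share of silique expression was 13.6% as fragments, and 11% of FPKM without the 4 highest genes. There were 57 genes with another silique-specific gene within 5 gene models, where 6.75% of all genes lay. The share of short loci was 13.9% at a limit of 500 bases and 31.0% at 800, beside 2.23% and 12.6% of the other genes above FPKM 50. The limits on span and the removal of the 4 highest genes were chosen after seeing the data.

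In leaf against root, leaving out 1 sample gave 2254 to 3838 genes higher in leaf and 3649 to 9175 higher in root over all genes, and 6 to 19 and 15 to 70 among the silique-specific genes. The filter on the 3 samples kept then removes genes confined to the tissue with a lone sample. The filter on all 4 samples lets in genes that pass only through 1 tissue. With the genes kept, an alternative added after seeing the data, the ranges were 2721 to 3494 and 4387 to 6313 over all genes, and 13 to 18 and 51 to 60 among the silique-specific genes. Over all genes higher in root, 4945 were called without leaf 2 and 5237 without root 2. The same-numbered leaf and root samples deviated together (correlation 0.64 across 25725 genes), but only 2 numbers exist and no label ties them. With the replicate block, 5718 genes were higher in leaf and 14109 higher in root, and 27 and 78 of the 124 silique-specific genes tested. The share higher in root was then 62.9% of these, beside 54.8% of all genes, so it stood closer to the background than without the block (54.8% beside 34.6%). Depth limits detection of low levels, most in stem and silique and for short loci.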
